A study of Mus musculus with 10 samples.

Results

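The 47 genes described here were lower in DKO than in control mouse pancreas and lie mostly outside the usual marker lists of pancreatic cells. They were chosen by their measured array levels. The mean of the DKO arrays had to lie at least 0.35 below that of the control arrays on the log2 scale (a difference of -0.35 or lower), and the highest DKO array had to lie below the lowest control array. Of 19938 genes, 58 (0.291%) met both conditions, and 47 were left after 13 genes had been set aside by name. These were Padi2, Ptprn2, Cacna1a, Orai2, Ascl2, Adamts1, Egf, Kcnk16, Rbpjl, Muc6, Ccnd1, Pnliprp2 and Sec61b. Of those, 11 met both conditions, and the arrays of Kcnk16 and Sec61b overlapped between the groups.

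The study compared RNA of whole pancreas in 2 groups of mixed strain background on Affymetrix Mouse Gene 1.0 ST arrays. The DKO group (n = 5) had the genotype PDX1Cre, Mst1-/-, Mst2L/L. It thus carried no functional Mst1 gene in any tissue, and a conditional Mst2 allele that Cre recombinase removes where the Pdx1 promoter has been active. The control group (n = 5) is labelled only as control, and its alleles, like the age and sex of all animals, are not given in the labels. Mst1 (gene symbol Stk4) and Mst2 (Stk3) are the Hippo kinases. Cells that never expressed Pdx1, such as those of vessels, stroma and blood, would lack Mst1 alone in DKO pancreas. Nothing in the labels states that each array had an animal of its own, so the errors and p-values below measure only the spread between these samples, which may be technical.

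The Hippo cascade runs from Mst1 and Mst2 to the Lats kinases, which hold the coactivators Yap and Taz out of the nucleus. In pancreas the cascade is known for its part in keeping acinar cells, the makers of digestive enzymes, distinct from duct cells. The genes described here are not classic Yap targets. By known roles they are mixed, and they are ordered below by what each product does, with several that have no role stated here.

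Because the levels themselves chose the genes, their differences are given as a description, with the standard error (SE) of the difference and no test. The differences ran from -0.96 for Aldh1b1 to -0.35 for Timm17b, with a median of -0.43 beside a median of -0.01 over all 19938 genes. In 12 genes the difference was -0.5 or lower, in 16 it lay between -0.5 and -0.4, and in 19 above -0.4. A difference of -0.43 on this scale is modest, and the lowest, -0.96, left the DKO level of Aldh1b1 at 51.5% of the control level. By limma over all genes, with Benjamini-Hochberg adjustment and a threshold of 0.05, 25 of the 47 passed, where 0.366% of all genes were called lower and 2.08% higher. Groups that did not overlap, with DKO lower, occurred in 1.28% of all genes, whatever the size of the difference. These counts follow from the choice of the genes.

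**Figure D1:**
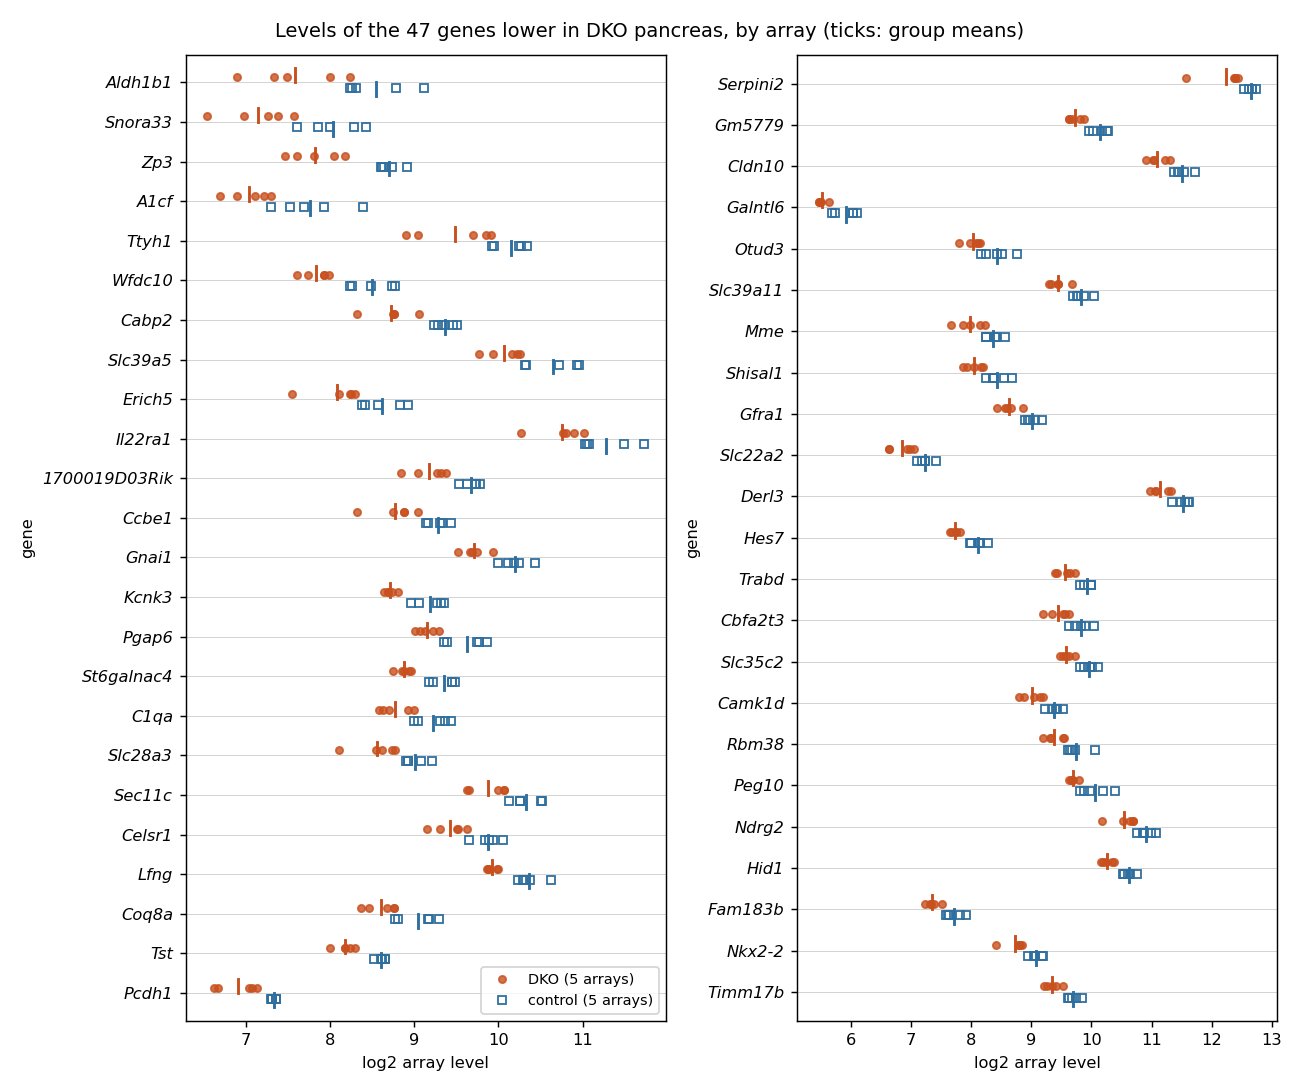
Log2 array level (x axis) of each of the 47 genes (rows, from the lowest to the highest difference, left panel first), with filled circles for the 5 DKO arrays, open squares for the 5 control arrays and ticks for group means. No row has overlapping groups, as the choice requires, and the gap between them ranges from almost 0 for C1qa to 0.42 for Zp3.

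The edges of the choice were close on both counts. Fam183b, Nkx2-2 and Timm17b lay just inside the required difference at -0.353, -0.352 and -0.352, and Tmprss4, Gabra4 and Snhg17 just outside at -0.3498, -0.349 and -0.343. Sostdc1, Gjb1 and Mgam had differences of -0.44, -0.39 and -0.37 but single arrays that crossed between the groups by 0.01 or less. C1qa was inside by the narrowest margin, with its highest DKO array and its lowest control array both at 9.0 and apart by 4e-05.

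**Figure D2:**
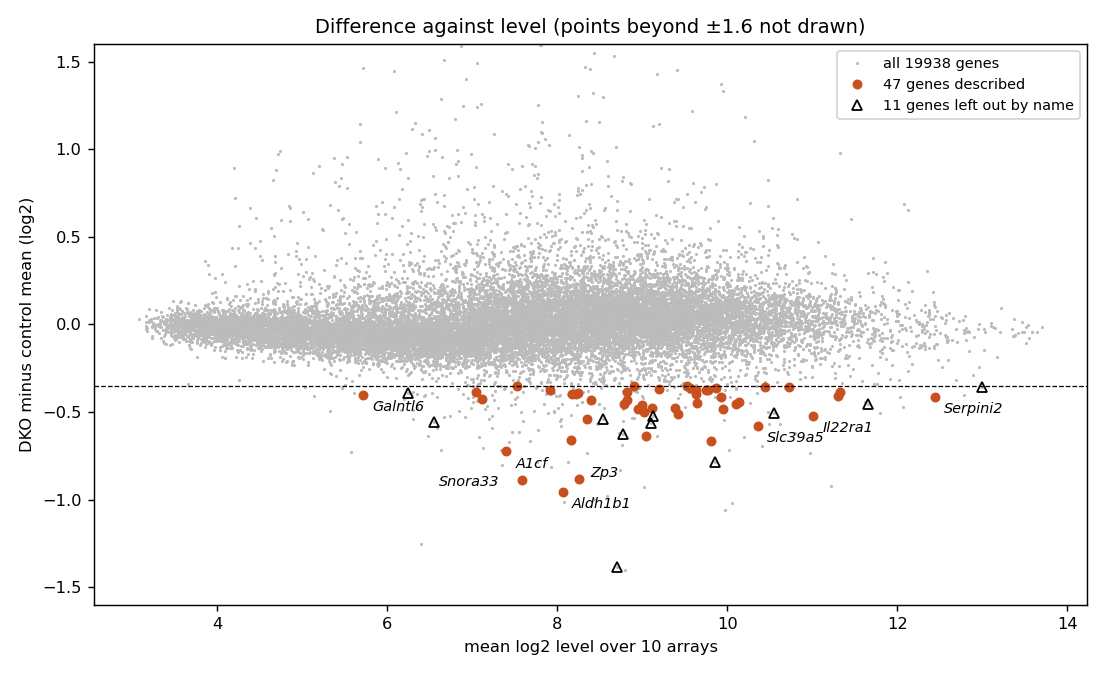
Difference between group means (DKO minus control, log2, y axis) against the mean log2 level over 10 arrays (x axis) for all 19938 genes in grey, the 47 genes as filled circles and the 11 genes set aside by name as open triangles. The dashed line marks -0.35, and uncovered grey points under it are genes whose groups overlap. Points beyond the y axis range are not drawn.

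The arrays held the tissue their label names, and some stood apart in genes of other cells. Genes of acinar secretion, 27 measured beside those described here, had mean levels of 11.58 to 11.81 in DKO arrays and 11.82 to 12.11 in control arrays, with a median difference of -0.12. Without Ctrc, which was far higher in 2 control arrays than in the rest, the ranges were 11.73 to 11.96 in DKO arrays and 11.97 to 12.10 in control arrays. Some acinar secretion genes measured close to 13.94, the highest value on these arrays. Examples were Ctrb1 (means of 13.70 in DKO and 13.71 in control arrays) and Clps (13.62 and 13.67). Whether this limits their differences was not tested. For 19 islet hormone and transcription factor genes the ranges were 8.90 to 9.15 in DKO arrays and 9.03 to 9.28 in control arrays. For 23 duct genes they were 9.85 to 10.02 in DKO arrays and 9.56 to 9.74 in control arrays. Of 19 hepatocyte genes, the mean was 10.26 in DKO replicate 1, 6.24 to 6.84 in the other DKO arrays and 6.25 to 6.91 in control arrays. Of 14 adipocyte genes, the mean was 9.11 in DKO replicate 2, 7.18 in DKO replicate 3 and 8.14 to 8.45 in control arrays. Of 17 lymphocyte genes, it was 6.70 and 6.61 in DKO replicates 1 and 2, 6.002 to 6.125 in the other DKO arrays and 6.15 to 6.49 in control arrays. Of 3 erythroid genes, it was 8.30 to 9.07 in DKO arrays, against 9.88 and 10.32 in control replicates 1 and 4 and 8.19 to 8.70 in the other controls. Xist, which female cells transcribe, was high in 2 DKO and 3 control arrays, so each group held arrays with and without it. In RNA of whole tissue, fewer cells of a type and less RNA per cell cannot be told apart, for every gene below.

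DKO replicate 1, the array with high hepatocyte genes, was the lowest of its group in 21 of the 47 genes. DKO replicate 5 was the highest of its group in 22, and control replicate 3 in 22. How often these arrays were the lowest or highest over all genes was not counted, so the counts may not be particular to the 47. The mean level over all 47 genes was 8.78, 8.85, 8.95, 8.90 and 9.04 in DKO replicates 1 to 5, and 9.31, 9.38, 9.46, 9.42 and 9.31 in control replicates 1 to 5. Without DKO replicate 1 the median difference was -0.40, and 36 of the 47 still met both conditions of the choice. Serpini2 moved most, to -0.25 ± 0.05 (SE) from -0.42 ± 0.15 (SE) with all arrays. The part of liver, fat or blood cell RNA in the levels of these genes was not tested.

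**Figure D3:**
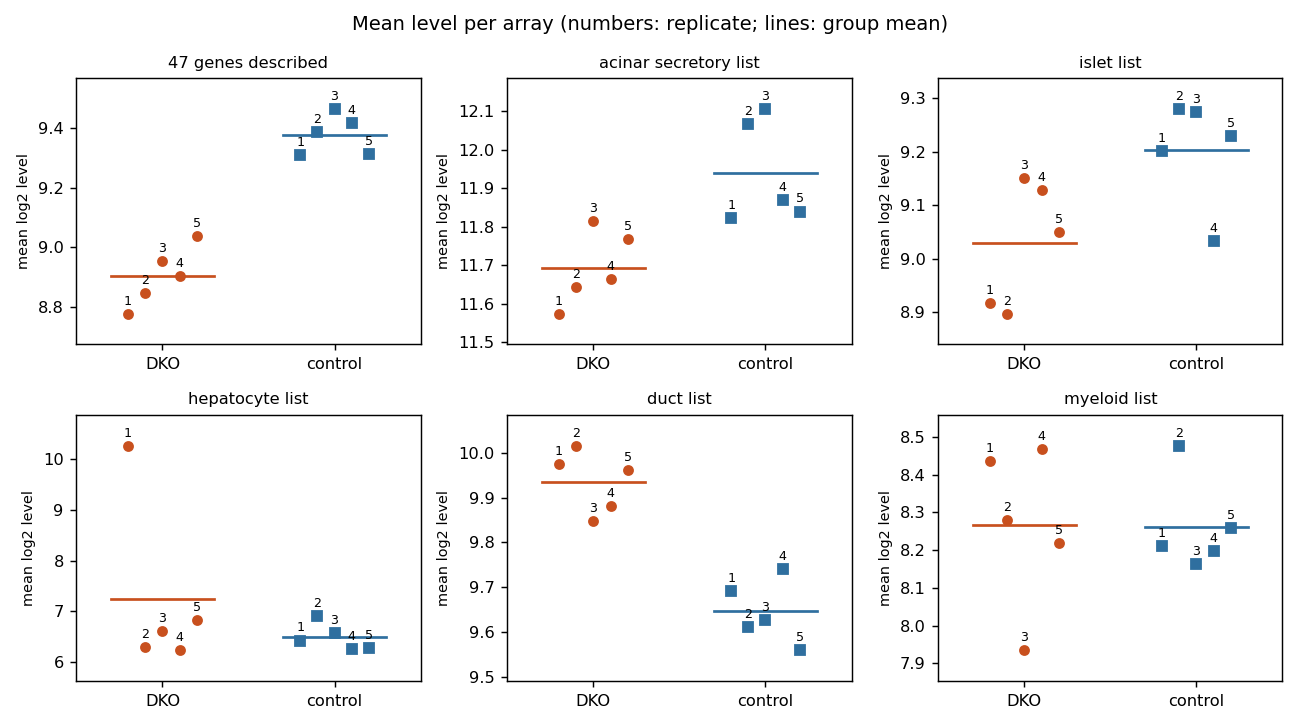
Mean log2 level (y axis) per array of the 47 genes and of 5 marker lists without them, DKO left and control right, with numbers for replicates and lines for group means. DKO replicate 1 lies at 10.26 in the hepatocyte list, against 6.24 to 6.91 in the other 9 arrays, and is the lowest array for the 47 genes. The acinar list is drawn with Ctrc, which is high in control replicates 2 and 3.

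Genes of the secretory pathway come first, since export of enzymes is the main work of the acinar cell. Sec11c, the catalytic subunit of the signal peptidase that trims proteins on entry into the endoplasmic reticulum, measured 9.65, 9.63, 10.06, 9.99 and 10.06 in DKO replicates 1 to 5. In control replicates 1 to 5 it measured 10.50, 10.25, 10.52, 10.13 and 10.26. DKO replicates 1 and 2 were the low arrays, the other 3 lay close together, and the difference was -0.45 ± 0.11 (SE). The other catalytic subunit, Sec11a, differed by 0.21 and did not pass (adjusted p = 0.0555). The accessory subunits Spcs1, Spcs2 and Spcs3 differed by -0.10, -0.07 and -0.21, and none passed limma over all genes (lowest adjusted p = 0.207). Derl3, a derlin of the pathway that removes misfolded proteins, had levels of 10.98, 11.07, 11.27, 11.06 and 11.33 in DKO replicates 1 to 5, against 11.61, 11.34, 11.49, 11.63 and 11.55 in control replicates 1 to 5. Its difference was -0.38 ± 0.08 (SE), with only 0.01 between the nearest arrays of the groups. The other derlins Derl1 (0.05) and Derl2 (-0.0047) did not pass (adjusted p = 0.641 and 0.984). Of the 41 other measured genes of the secretory pathway list, 0 passed limma in either direction, and their median difference was -0.10, against -0.01 over all genes.

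Serpini2, a serine protease inhibitor made by acinar cells, measured 11.57, 12.37, 12.39, 12.38 and 12.44 in DKO replicates 1 to 5. Control replicates 1 to 5 gave 12.67, 12.54, 12.73, 12.67 and 12.62. Only DKO replicate 1 lay far from the rest, and the other 4 DKO arrays were 0.10 or more below the lowest control array. Hid1, a Golgi protein needed for dense-core granules, differed by -0.36 ± 0.06 (SE), and Pgap6, a lipase that acts on GPI anchors, by -0.48 ± 0.11 (SE). In the list of acinar secretory genes, 3 of the 27 others were called lower by limma and none higher. They were Tmed6 (-0.34, adjusted p = 0.0359), Muc6 (-0.39, 0.0210) and Egf (-0.54, 0.0445), the last 2 among the genes set aside.

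Of the 23 measured genes in the Notch list, only Lfng is among the 47. Slc35c2 and Hes7, which are not in that list, are described beside it for their known ties to Notch, the receptor by which neighbouring cells sort their fates. Lfng, the lunatic fringe enzyme that extends O-fucose on Notch, had levels of 9.86, 9.87, 9.98, 9.89 and 10 in DKO replicates 1 to 5, against 10.29, 10.37, 10.63, 10.23 and 10.30 in control replicates 1 to 5. The DKO arrays lay close together, and control replicate 3 stood above the other controls. The difference was -0.44 ± 0.07 (SE), or 73.6% of the control level. Slc35c2, a transporter-like protein that favours fucosylation of Notch, measured 9.58, 9.52, 9.73, 9.47 and 9.62 in DKO replicates 1 to 5, with 9.88, 10.01, 10.11, 9.98 and 9.81 in control replicates 1 to 5. Control replicate 5 and DKO replicate 3 came nearest to each other, and the difference was -0.37 ± 0.07 (SE). Hes7, a transcriptional repressor known as a Notch target of the segmentation clock, had levels of 7.69, 7.65, 7.82, 7.75 and 7.75 in DKO replicates 1 to 5, against 8.15, 8.13, 8.28, 7.98 and 8.0 in control replicates 1 to 5. Its difference was -0.38 ± 0.06 (SE).

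The rest of the Notch pathway was tested by limma over all genes. None of the 22 other genes in the list passed in either direction, with a median difference of -0.05. The receptor Notch1 differed by -0.09 (adjusted p = 0.588), the ligand Jag1 by -0.16 (0.411) and the target Hes1 by 0.20 (0.439). The other fringe enzymes, Mfng and Rfng, had differences of -0.07 and -0.27, and neither passed (adjusted p = 0.563 and 0.0615). Among 8 other Hes and Hey genes, differences ran from -0.24 to 0.20 and none passed.

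The promoters of Lfng, Hes7 and Slc39a5 are shown because they hold the letters TGGGAA, the core bound by Rbpj and its acinar relative Rbpjl, on one strand or the other. Each window runs from 250 bases before to 50 bases after the gene's start (RefSeq, first window listed per gene), and capitals mark the TGGGAA letters or their reverse complement TTCCCA.
Lfng, GRCm38.p6 chr5:140607091-140607390, plus strand: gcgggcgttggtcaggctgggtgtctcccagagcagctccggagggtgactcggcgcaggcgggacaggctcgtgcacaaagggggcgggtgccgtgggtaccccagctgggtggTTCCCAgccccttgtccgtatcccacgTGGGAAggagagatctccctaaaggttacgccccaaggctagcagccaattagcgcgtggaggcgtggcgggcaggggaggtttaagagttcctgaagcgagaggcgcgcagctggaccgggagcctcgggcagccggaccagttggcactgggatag
Hes7, GRCm38.p6 chr11:69120203-69120502, plus strand: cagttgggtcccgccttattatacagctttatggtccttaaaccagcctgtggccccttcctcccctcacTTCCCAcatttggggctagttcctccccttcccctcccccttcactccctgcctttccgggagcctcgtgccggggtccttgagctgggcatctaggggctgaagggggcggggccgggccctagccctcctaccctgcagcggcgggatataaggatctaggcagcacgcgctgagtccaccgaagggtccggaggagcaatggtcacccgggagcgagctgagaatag
Slc39a5, GRCm38.p6 chr10:128401175-128401474, minus strand: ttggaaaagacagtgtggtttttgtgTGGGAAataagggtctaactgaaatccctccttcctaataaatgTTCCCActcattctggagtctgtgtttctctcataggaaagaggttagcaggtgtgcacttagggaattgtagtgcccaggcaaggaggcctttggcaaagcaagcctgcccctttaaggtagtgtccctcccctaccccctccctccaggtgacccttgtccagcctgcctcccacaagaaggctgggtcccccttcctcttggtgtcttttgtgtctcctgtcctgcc
The letters occurred in 9 of the 34 genes that had a promoter window (26.5%), and in 24.01% of the 15563 measured genes with one. Lfng and Slc39a5 held 2 copies each and Hes7 held 1.

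Cell contact genes included Celsr1, a cadherin of planar cell polarity, with levels of 9.31, 9.15, 9.62, 9.52 and 9.51 in DKO replicates 1 to 5, against 9.94, 9.89, 10.05, 9.65 and 9.84 in control replicates 1 to 5. Its difference was -0.45 ± 0.10 (SE), and those of Celsr2 (-0.16) and Celsr3 (-0.13) did not pass limma. Cldn10, a claudin that forms ion pores in tight junctions, measured 10.90, 11.02, 11.22, 11.04 and 11.31 in DKO replicates 1 to 5. In control replicates 1 to 5 it measured 11.46, 11.54, 11.72, 11.44 and 11.38. Its difference was -0.41 ± 0.09 (SE), and a dimmer set of probes for the gene gave -0.39. A probe set that the annotation assigns to both Dzip1 and Cldn10 gave 0.09, at a mean level of 6.92 in DKO and 6.83 in control arrays. The claudin family moved the other way where it moved. Of 27 other claudins, 4 were called higher by limma and none lower, namely Cldn4 (1.37, adjusted p = 0.00227), Cldn23 (1.15, 0.000139), Cldn6 (0.98, 0.00109) and Cldn12 (0.48, 0.00971). Pcdh1, a protocadherin, had a control SD of 0.03 and a DKO SD of 0.24 (n = 5 each), with a difference of -0.43 ± 0.10 (SE).

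Transporters made up 10.6% of the 47 genes (5 genes named Slc), beside 1.90% of all genes compared. Slc39a5, the zinc importer ZIP5 that lies on the basolateral side of acinar and gut cells, measured 9.93, 10.16, 10.22, 9.77 and 10.26 in DKO replicates 1 to 5. Control replicates 1 to 5 gave 10.31, 10.72, 10.96, 10.93 and 10.33. Control replicates 1 and 5 came within 0.1 of the highest DKO array, while the other 3 controls were clearly above, and the difference was -0.58 ± 0.15 (SE). Slc39a11, another zinc transporter of the family, measured 9.44, 9.32, 9.44, 9.30 and 9.68 in DKO replicates 1 to 5, against 9.76, 9.78, 10.05, 9.88 and 9.70 in control replicates 1 to 5. Its difference was -0.40 ± 0.09 (SE), and DKO replicate 5 almost reached control replicate 5. Among the 12 other Slc39 genes 1 was called, Slc39a8, which takes up zinc and manganese and was higher by 0.80 ± 0.15 (SE, limma adjusted p = 0.0196). Its levels were 10.26 ± 0.16 in DKO and 9.46 ± 0.35 in control (SD, n = 5 each). None of 10 zinc exporters of the Slc30 family passed, Slc30a8 of the beta cell granule at -0.18 (adjusted p = 0.575) among them.

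Slc28a3, which concentrates nucleosides in cells, had levels of 8.10, 8.73, 8.54, 8.77 and 8.62 in DKO replicates 1 to 5, against 8.90, 8.93, 8.92, 9.21 and 9.08 in control replicates 1 to 5. DKO replicate 1 was the low array, and the difference was -0.46 ± 0.12 (SE) with it and -0.34 ± 0.08 (SE) without it. Slc22a2, an organic cation transporter known from kidney, differed by -0.39 ± 0.09 (SE). Of the 22 other Slc22 genes 1 was called higher and none lower.

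Among channels, Kcnk3, the acid-sensitive potassium leak channel TASK-1, measured 8.69, 8.80, 8.73, 8.64 and 8.69 in DKO replicates 1 to 5. Its levels in control replicates 1 to 5 were 9.32, 9.27, 9.35, 9.05 and 8.96. The DKO arrays were tightly grouped (SD 0.06, n = 5), the controls less so (SD 0.18, n = 5), and the difference was -0.48 ± 0.08 (SE). Of 13 other channels of the Kcnk family, the islet channel gene Kcnk16 was called lower (-0.54, adjusted p = 0.0478) and none higher. Ttyh1, a membrane protein of the tweety family, had levels of 8.90, 9.04, 9.85, 9.70 and 9.91 in DKO replicates 1 to 5, against 10.27, 9.95, 9.92, 10.34 and 10.24 in control replicates 1 to 5. DKO replicates 1 and 2 were far below the others, and the difference was -0.66 ± 0.20 (SE). Its relatives Ttyh2 (-0.07) and Ttyh3 (0.10) did not pass.

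In signalling, Il22ra1, the subunit by which epithelia sense interleukin 22, measured 10.77, 10.27, 11.02, 10.90 and 10.80 in DKO replicates 1 to 5. Control replicates 1 to 5 gave 11.03, 11.49, 11.73, 11.05 and 11.08. Control replicates 2 and 3 were high, the other 3 lay just above DKO replicate 3, and the difference was -0.52 ± 0.17 (SE). A dimmer set of probes for the same gene differed by -0.53. Ifnlr1, the receptor of lambda interferons and a relative, was higher in DKO by 0.47 ± 0.08 (SE, limma adjusted p = 0.0137). The subunit Il10rb, which both receptors share, was not called (0.10, adjusted p = 0.601).

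Calcium and G protein genes included Cabp2, a calmodulin-like protein known from hair cells and retina, with levels of 8.32, 8.75, 8.76, 8.76 and 9.06 in DKO replicates 1 to 5. In control replicates 1 to 5 they were 9.28, 9.35, 9.46, 9.51 and 9.23. The groups were 0.17 apart at their nearest arrays, and the difference was -0.64 ± 0.12 (SE). Gnai1, an inhibitory G protein subunit that lowers cyclic AMP, measured 9.52, 9.68, 9.66, 9.93 and 9.75 in DKO replicates 1 to 5, against 10.11, 10.24, 10.43, 9.99 and 10.18 in control replicates 1 to 5. Its difference was -0.48 ± 0.09 (SE), while Gnai2 (0.07) and Gnai3 (0.09) did not pass. Camk1d, a calmodulin-dependent kinase, differed by -0.37 ± 0.09 (SE), and Gfra1, the GDNF co-receptor, by -0.39 ± 0.08 (SE). The signalling receptor Ret, to which Gfra1 binds, differed by -0.11 (adjusted p = 0.635), and Gfra2 by 0.42 (adjusted p = 0.0962). Of the 27 other genes of the calcium list 1 passed limma, the store-operated channel gene Orai2 (-0.56, adjusted p = 0.00111), which was set aside by name.

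Among metabolic enzymes, Aldh1b1, a mitochondrial aldehyde dehydrogenase known in mouse pancreas from rare centroacinar cells, measured 7.48, 8.0, 7.33, 6.89 and 8.23 in DKO replicates 1 to 5. Control replicates 1 to 5 gave 8.26, 8.31, 8.24, 9.12 and 8.78. Both groups were widely spread, DKO replicate 5 almost met control replicate 3, and the difference was -0.96 ± 0.26 (SE). None of 20 other aldehyde dehydrogenases passed limma. Their extremes were Aldh1l2, a mitochondrial folate enzyme, at -0.57 (adjusted p = 0.0936), and Aldh1a1, which makes retinoic acid, at 0.55 (adjusted p = 0.0652). Tst, the mitochondrial enzyme rhodanese that detoxifies cyanide, had levels of 8.18, 8.17, 8.0, 8.24 and 8.29 in DKO replicates 1 to 5, against 8.52, 8.62, 8.65, 8.65 and 8.60 in control replicates 1 to 5. All controls lay close together, above every DKO array, and the difference was -0.43 ± 0.06 (SE). Coq8a, which is needed to make coenzyme Q, differed by -0.43 ± 0.12 (SE), and Timm17b, a subunit of the mitochondrial import channel, by -0.35 ± 0.07 (SE). None of 13 other Timm genes passed.

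Sugar and protein modifiers followed. St6galnac4, which adds sialic acid to mucin-type sugars, measured 8.88, 8.75, 8.94, 8.85 and 8.96 in DKO replicates 1 to 5, with 9.17, 9.45, 9.45, 9.48 and 9.22 in control replicates 1 to 5. The difference was -0.47 ± 0.07 (SE), and none of 5 relatives was called, the nearest being St6galnac2 at 0.27 (adjusted p = 0.0630). Galntl6, of the family that starts mucin-type sugar chains, had a difference of -0.40 ± 0.09 (SE). Its DKO mean of 5.51 lay within 3.99 to 5.75, the range that sex-linked genes took in arrays of the sex lacking them, and the dimmer probe sets of the gene gave only -0.12 and -0.19. Otud3, a deubiquitinase, differed by -0.40 ± 0.11 (SE), and Mme, the surface peptidase neprilysin, by -0.39 ± 0.11 (SE).

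Transcription and RNA genes included Nkx2-2, a homeodomain factor of islet cells, with levels of 8.42, 8.78, 8.82, 8.79 and 8.84 in DKO replicates 1 to 5. In control replicates 1 to 5 they were 8.94, 9.18, 9.06, 9.19 and 9.04. DKO replicate 1 stood alone, and the difference was -0.35 ± 0.09 (SE) with it and -0.28 ± 0.06 (SE) without it. None of 19 other islet hormone and factor genes was called by limma, among them Iapp (-0.32, adjusted p = 0.0971) and Insm1 (-0.32, 0.0881), and their median difference was -0.17. Cbfa2t3, a corepressor, differed by -0.37 ± 0.10 (SE), whereas its relative Runx1t1 was higher in DKO by 0.61 ± 0.10 (SE, limma adjusted p = 0.0115). A1cf, the RNA-binding partner of the APOBEC1 editing enzyme, measured 7.11, 7.29, 7.21, 6.69 and 6.89 in DKO replicates 1 to 5. Control replicates 1 to 5 gave 7.52, 7.30, 7.92, 8.39 and 7.69, with control replicate 2 almost at the level of DKO replicate 2. The difference was -0.72 ± 0.19 (SE), and Apobec1 itself was not called (0.22, adjusted p = 0.307).

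Snora33, a small nucleolar RNA of the class that guides pseudouridine formation, had levels of 7.57, 6.54, 7.26, 6.97 and 7.38 in DKO replicates 1 to 5, against 7.86, 8.28, 8.0, 7.60 and 8.43 in control replicates 1 to 5. Its difference was -0.89 ± 0.20 (SE), and DKO replicate 1 lay just below control replicate 4. Rps12, the ribosomal protein gene that holds Snora33 in the RefSeq annotation, differed by -0.23 ± 0.12 (SE) and was not called (adjusted p = 0.397). Rbm38, an RNA-binding protein of the p53 response, differed by -0.36 ± 0.10 (SE), and Peg10, an imprinted gene derived from a retrotransposon, by -0.36 ± 0.10 (SE). Gm5779, annotated as a transcribed pseudogene, differed by -0.41 ± 0.08 (SE). The array annotation places it with the ribosomal protein gene Rplp0 on other probe sets, which gave -0.04 each, so its own value is uncertain.

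Secreted and extracellular genes included Zp3, a glycoprotein of the egg coat, with levels of 7.46, 7.60, 8.04, 7.81 and 8.18 in DKO replicates 1 to 5. In control replicates 1 to 5 they were 8.60, 8.73, 8.91, 8.62 and 8.64. The gap of 0.42 between the nearest arrays was the widest of the 47 genes, and the difference was -0.88 ± 0.13 (SE), or 54.2% of the control level. The other egg coat genes Zp1 (-0.14), Zp2 (-0.04) and Zp4-ps (0.05) did not pass. Their control means were 6.21, 4.77 and 4.65. Those of Zp2 and Zp4-ps lay within 3.99 to 5.75, the range of silent sex-linked genes, where a decrease could hardly show. Wfdc10, a small protein with a protease inhibitor fold, measured 7.98, 7.74, 7.60, 7.93 and 7.93 in DKO replicates 1 to 5, against 8.26, 8.73, 8.48, 8.77 and 8.24 in control replicates 1 to 5. Its difference was -0.66 ± 0.12 (SE). Of 17 other Wfdc genes 1 passed, Wfdc18, which was higher by 1.02 ± 0.14 (SE, limma adjusted p = 0.00348). Several of the others also lay in the silent range, such as Wfdc6b, Wfdc9 and Wfdc8 with control means of 3.62, 4.86 and 5.10. Ccbe1, a secreted protein of lymphatic growth, differed by -0.50 ± 0.12 (SE).

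C1qa, one chain of complement C1q made by macrophages, measured 8.58, 8.70, 8.63, 8.93 and 9.0 in DKO replicates 1 to 5. Control replicates 1 to 5 gave 9.0, 9.43, 9.04, 9.30 and 9.36, and the difference was -0.46 ± 0.11 (SE). The partner chains, which the same cells make, did not share it. C1qb was 10.44 ± 0.25 in DKO and 10.32 ± 0.24 in control (SD, n = 5 each), a difference of 0.11 ± 0.14 (SE, limma adjusted p = 0.717). C1qc was 9.65 ± 0.20 in DKO and 9.52 ± 0.35 in control (SD, n = 5 each), a difference of 0.13 ± 0.16 (SE, limma adjusted p = 0.715). The 15 measured genes of myeloid cells had mean levels of 7.94 to 8.47 in DKO arrays and 8.16 to 8.48 in control arrays, and 0 of them passed limma.

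The remaining genes were Erich5 (-0.54 ± 0.15 SE), 1700019D03Rik (-0.51 ± 0.10), Shisal1 (-0.39 ± 0.09), Trabd (-0.38 ± 0.07), Ndrg2 (-0.36 ± 0.10) and Fam183b (-0.35 ± 0.08). Of these, Ndrg2 belongs to a family of stress and differentiation genes, whose other 3 members were not called.

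Some of the genes lie close to the deleted kinases. Erich5 lies 5 measured genes away from Stk3 on chromosome 15, and had levels of 7.55, 8.25, 8.10, 8.23 and 8.29 in DKO replicates 1 to 5, against 8.83, 8.41, 8.38, 8.92 and 8.57 in control replicates 1 to 5. On chromosome 2, Wfdc10 lies 28 and Slc35c2 52 measured genes away from Stk4, as counted in the gene order of the GRCm38.p6 assembly. Of the 120 measured genes nearest to Stk4, 60 on either side, 3 met both conditions of the choice (2.50%), namely Rbpjl, Wfdc10 and Slc35c2, beside 0.291% of all genes. Of the 120 nearest to Stk3, 1 did, Erich5. By limma, 4 of the neighbours of Stk4 were called lower (Snhg17, Rbpjl, Wfdc10 and Slc35c2) and 0 higher, beside 0.366% and 2.08% of all genes. Of the neighbours of Stk3, 0 were called lower and 4 higher. The median difference was -0.04 over the neighbours of Stk4 and 0.01 over those of Stk3. Linkage to the altered alleles in a mixed strain background was not tested.

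**Figure D4:**
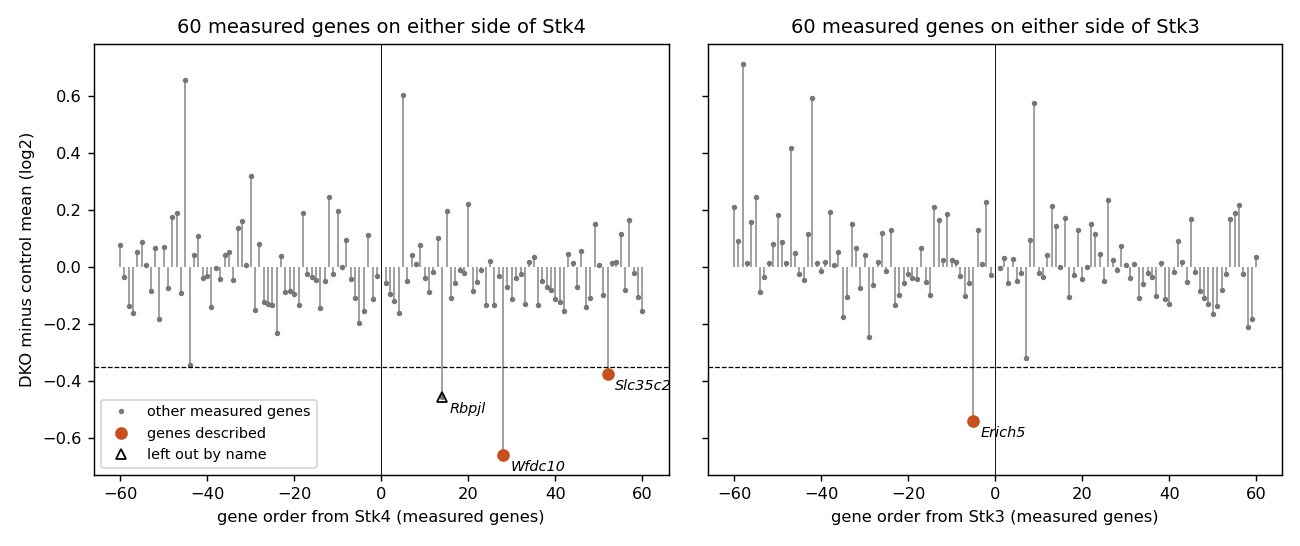
Difference between group means (DKO minus control, log2, y axis) of the 60 measured genes on either side of Stk4 (left) and Stk3 (right), in gene order (x axis), with filled circles for genes described here, an open triangle for Rbpjl and a dashed line at -0.35. Wfdc10 (28 genes away), Slc35c2 (52) and Erich5 (5) lie below the dashed line, as does Rbpjl.

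Within the groups the 47 genes did not move as one. Correlations between genes of each array's deviation from its group mean, over 10 arrays, are given as a description. The deviations leave out the difference between group means, but not the other condition of the choice: groups that may not overlap limit how far single arrays can deviate. All points also share the same arrays and their common scaling, so the values over all genes below are no test of the 47. Over the 1081 pairs of the 47 genes the median correlation was 0.22, from -0.78 for Aldh1b1 with Gm5779 to 0.95 for Otud3 with Hes7. Over all pairs of the 19938 genes the median was 0.00. Correlations above 0.7 made up 10.2% of pairs of the 47 genes and 5.07% of all pairs. Joined by average linkage at a correlation of 0.5, 45 of the 47 genes fell into 6 groups. No other set of genes was joined in the same way, so these counts are a description only.

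A group of 12 held Zp3, Il22ra1, Sec11c, Celsr1, Lfng, Cldn10, Otud3, Hes7, Trabd, Camk1d, Ndrg2 and Hid1, with a median correlation of 0.73. DKO replicate 2 and control replicate 4 were its low arrays, at -0.20 and -0.13 from their group means, and control replicate 3 its high array at 0.21. Zp3 correlated with Cldn10 at 0.93 and with Camk1d at 0.89. Another group of 12 held Ttyh1, Cabp2, Erich5, 1700019D03Rik, Ccbe1, Slc28a3, Pcdh1, Serpini2, Mme, Slc22a2, Derl3 and Nkx2-2. Its median correlation was 0.68 with DKO replicate 1, which lay at -0.39 from the DKO mean, and 0.30 without that array. In the first group the median correlation was 0.77 without DKO replicate 1. A group of 8 held Pgap6, St6galnac4, Coq8a, Galntl6, Slc39a11, Gfra1, Cbfa2t3 and Slc35c2 (median correlation 0.68), and a group of 6 held Aldh1b1, A1cf, Slc39a5, Shisal1, Rbm38 and Timm17b (0.57). Snora33 and Kcnk3 joined none.

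**Figure D5:**
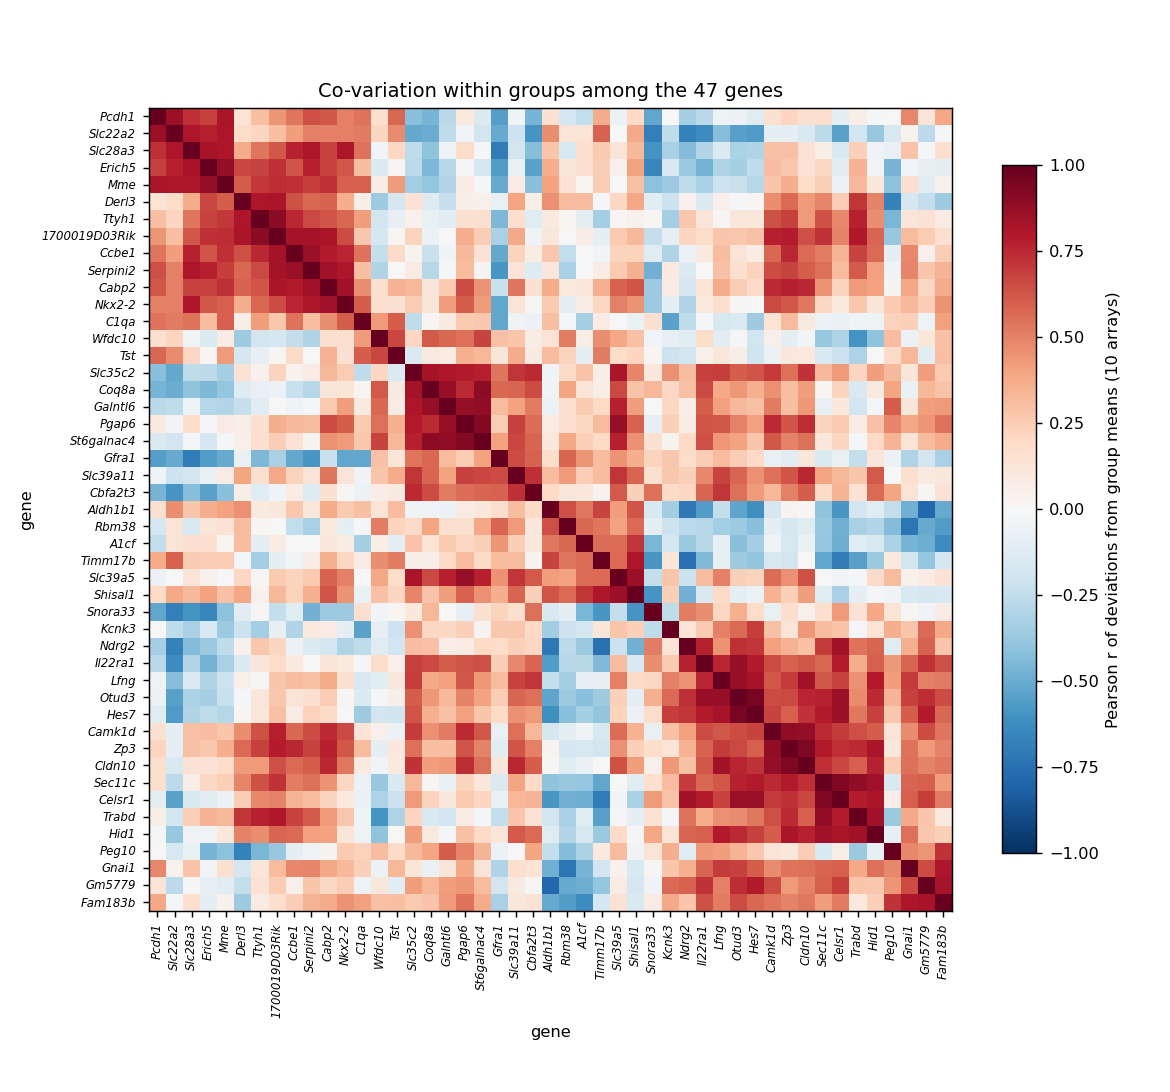
Pearson correlation (colour, from -1 to 1) between the deviations from group means of each pair of the 47 genes over 10 arrays, ordered by average linkage. The blocks along the diagonal include the group with Zp3 and Cldn10 (median 0.73) and the group with Serpini2 and Nkx2-2 (median 0.68).

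The same deviations were set against those of marker lists, beside the shares among all genes outside the 47 and the list. These other genes were not matched to the 47 in level. With the mean of the acinar secretory list the median correlation of the 47 genes was 0.51 (0.03 over the other genes), and 11 of 47 (23.4%) exceeded 0.7, against 1.49% of the others. Ctrc, the chymotrypsin C gene, carries much of that mean's spread, as it measured 7.50 to 8.38 in DKO arrays and 12.41 and 12.33 in control replicates 2 and 3, against 7.92 to 8.60 in the other controls. Without Ctrc the median correlation was 0.54, and 10 genes (21.3%) exceeded 0.7, against 1.46% of the others, with Camk1d (0.94), Zp3 (0.92) and Cldn10 (0.91) highest. The genes left in that list also spread unequally. The SDs in DKO and control arrays were 0.67 and 0.17 for Gp2, 0.47 and 0.71 for Tmed11, but 0.03 and 0.01 for Cpa1. Pnliprp2, Egf and Muc6 in the list met both conditions of the choice themselves. With the islet list the median was 0.23. There 7 genes (14.9%) exceeded 0.7, against 5.03% of the others, with Celsr1 highest at 0.91, and 2 lay below -0.7, Timm17b (-0.75) and Rbm38 (-0.72), against 4.86% of the others. These 2 were the genes above 0.7 with the duct list (4.26%, against 4.57% of the others), at 0.82 for Timm17b and 0.72 for Rbm38. With the hepatocyte list 8 genes (17.0%) lay below -0.7, against 2.92% of the others, namely Serpini2 (-0.96), Slc28a3 (-0.90), Ccbe1 (-0.82), Erich5 (-0.81), Nkx2-2 (-0.80), 1700019D03Rik (-0.73), Cabp2 (-0.72) and Mme (-0.70). Only Gfra1 lay above 0.7 there, at 0.74 (2.13%, against 4.09% of the others). In the hepatocyte list DKO replicate 1 lies far from all other arrays. With the myeloid list Derl3 was lowest at -0.76, and it alone lay below -0.7 (2.13%, against 0.80% of the others).

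Genes outside the 47 that most resembled their mean deviation were Abhd18 (0.94), Fndc3c1 (0.92), Ap3s1 (0.92), Lcorl (0.91) and Zc3h6 (0.91), over 10 arrays. None of these was called between the groups by limma (lowest adjusted p = 0.244).

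The promoters of Zp3, Cldn10 and Camk1d are shown because these genes varied together closely, with pairwise correlations of 0.93, 0.89 and 0.88. Capitals mark E-boxes, the letters CANNTG that basic helix-loop-helix factors bind, which read alike on both strands.
Zp3, GRCm38.p6 chr5:135979855-135980154, plus strand: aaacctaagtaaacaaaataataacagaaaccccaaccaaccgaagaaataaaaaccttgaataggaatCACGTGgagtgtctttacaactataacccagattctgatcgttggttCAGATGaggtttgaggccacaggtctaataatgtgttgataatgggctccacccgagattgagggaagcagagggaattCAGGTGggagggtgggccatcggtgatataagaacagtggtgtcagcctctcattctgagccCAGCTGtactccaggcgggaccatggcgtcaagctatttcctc
Cldn10, GRCm38.p6 chr14:118787621-118787920, plus strand: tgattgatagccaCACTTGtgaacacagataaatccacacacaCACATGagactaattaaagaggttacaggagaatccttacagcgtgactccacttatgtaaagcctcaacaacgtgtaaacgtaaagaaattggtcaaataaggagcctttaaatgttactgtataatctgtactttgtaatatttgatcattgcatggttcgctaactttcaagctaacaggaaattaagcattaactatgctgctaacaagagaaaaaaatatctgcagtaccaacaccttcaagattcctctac
Camk1d, GRCm38.p6 chr2:5714713-5715012, minus strand: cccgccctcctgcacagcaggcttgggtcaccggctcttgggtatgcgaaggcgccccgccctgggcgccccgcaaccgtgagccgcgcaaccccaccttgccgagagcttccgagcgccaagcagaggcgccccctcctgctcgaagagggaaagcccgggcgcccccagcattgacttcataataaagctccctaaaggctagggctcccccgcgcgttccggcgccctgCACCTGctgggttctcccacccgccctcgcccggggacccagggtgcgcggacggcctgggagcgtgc
Zp3 held 4 E-boxes, Cldn10 held 2 and Camk1d held 1. E-boxes occurred in 26 of the 34 windows (76.5%) and in 68.0% of all 15563. An E-box together with TGGGAA, the letters that the acinar factor complex PTF1 reads side by side, occurred in 7 of 34 (20.6%) and in 16.8% of all, at any spacing.

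Other letters were close to their share in all promoters. CATTCC, bound by the TEAD partners of Yap and Taz, was found in 5 of 34 windows (14.7%) and in 13.1% of all. AGATAA of GATA factors was found in 5 (14.7%, 9.55% of all), TATAAA in 3 (8.82%, 12.1% of all) and TAATTA of homeodomain factors in 2 (5.88%, 4.33% of all), each searched on both strands. Letters of different motifs overlapped in 2 of the 34 windows. The median GC content was 56.2% in the 34 windows and 57.7% in all.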

How the data were processed

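Log2 levels of 35556 transcript clusters in 10 samples were used as deposited by the authors, who processed the arrays with Affymetrix Expression Console, per the submitters' processing notes. Its version and settings are not stated there. Array medians of 7.12 to 7.15 show that the deposited log2 values were already on a common scale. Clusters with 1 gene symbol (21789) entered, and the brightest cluster stood for each of 19938 genes. Clusters with several genes or no name did not enter the fit, and values of those that share a gene with the 47 are given beside it. Stk3 was not analysed here. Depth is not defined for arrays, and 5 arrays per group limit the precision.

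All genes were fitted with limma 3.58.1 in R 4.3.3 (lmFit, eBayes, two-sided, Benjamini-Hochberg over all genes), which was tested on simulated data. SEs come from this fit. The genes and their lists were chosen with earlier results of these data known. Gene families and the promoters shown were chosen after the values were seen. Names follow a rule of the 20 lowest differences, list members, neighbours of Stk4 and Stk3, the edges of the choice and the 5 genes most alike outside it, and the other names were added after their values were seen. Symbols, gene order and promoters are from RefSeq (GRCm38.p6). No build is named for the arrays. Alternatives were another normalization, filters on dim genes, the mean of a gene's clusters, other variance settings, Xist as a covariate, the replicate block and each array left out.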

Additional observations from a re-analysis of the deposited data

Results flagged for a closer look

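In 94 groups of 5 arrays (47 genes in DKO and in control), 5 groups had 1 array far from the other 4. That is close to the share of about 1 in 20 that chance alone gives. DKO replicate 1 was the low array in 3 of these 5 groups. It measured 11.57 for Serpini2 (next lowest 12.37), 7.55 for Erich5 (next 8.10) and 8.42 for Nkx2-2 (next 8.78), and it is the array with high hepatocyte genes. DKO replicate 3 was high for Galntl6 at 5.63 (next 5.51), and control replicate 4 was high for Rbm38 at 10.06 (next 9.73).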

How the results depend on the processing

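Of 793 single-gene differences under the alternatives, 793 stayed below 0, and 792 moved by less than 1 SD between replicates. The exception was Galntl6, at -0.24 with all its clusters averaged. With 1 array left out the choice itself fixed the sign, since every DKO array lay below every control array. The count below 0 is therefore no support for these differences. The count of 792 is none either, as most of it was fixed in advance. The replicate block and the filters on dim genes cannot change a gene's difference. Leaving out 1 array can move a group mean by only a part of an SD. The median difference over the 47 genes lay between -0.47 and -0.40 in every alternative run, including Xist as a covariate (-0.42). The replicate block had to return -0.43, because balanced replicate terms leave the difference of group means unchanged. Trended and robust variance settings alter only the errors, so they could not move the median either. Counts moved more. Genes called lower over all genes, 73 with all arrays, numbered 46 with Xist as a covariate, 16 with the replicate block, and 28 (without control replicate 3) to 64 (without DKO replicate 5) with 1 array left out. They were fewer by over 1.5 times also without DKO replicate 1 (40), DKO replicate 2 (40), DKO replicate 4 (38), control replicate 2 (32) or control replicate 5 (43). Subtraction of array medians gave 103 genes lower and 271 higher, against 73 lower and 414 higher as reported. Of the 47 genes (counts added after seeing the data), 25 were called with all arrays, 7 with the replicate block, and 10 (without control replicate 3) to 20 (without DKO replicate 3) with 1 array left out. The calls fell by more than 1.5 times also without DKO replicate 2 (14), DKO replicate 4 (16), control replicate 1 (16), control replicate 2 (12) or control replicate 5 (15). Deviations of same-numbered DKO and control arrays correlated at -0.27 to 0.29. Arrays of unlike number were not set beside them, so whether the replicate numbers pair the samples is not known. The cause of the lower counts under the block was not tested. Genes meeting the choice, 47 in the reported setting, numbered 81 after subtraction of array medians, 28 at a difference of -0.4 or lower, and 37 (without control replicate 3) to 84 (without control replicate 4) with 1 array left out, 72 without DKO replicate 5 and 80 without control replicate 1 among them. The median pairwise correlation was 0.17 (without DKO replicate 5) to 0.25 (without control replicate 4), and the median correlation with the acinar secretory list was 0.54 without Ctrc, an alternative added after seeing the data, against 0.51 with it. The causes of these shifts were not tested. The number of arrays, and signal near background for Galntl6, limit the precision.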
